A study of Mus musculus with 6 samples.

Results

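The transcripts described here are 38 genes that mark white blood cells, read in RNA from sorted parietal cells of the mouse stomach. They were taken by name from lists of lineage markers, and all 38 were present among the 23284 genes of the deposited table. The set holds 12 pan-leukocyte genes, 11 genes of T cells and natural killer (NK) cells, 4 of B cells and plasma cells, 9 of macrophages and monocytes, and 2 of neutrophils. Parietal cells, which secrete gastric acid, are epithelial cells and not leukocytes.

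The study comprised 6 libraries, 3 from control mice labelled Transgenic-Tom and 3 from mice labelled Transgenic-Tom-nog. In the series design both Cre and noggin (Nog), a secreted antagonist of bone morphogenetic proteins, are driven by the promoter of the H+/K+ ATPase, which is active in parietal cells. The design further lists a Rosa26-tdTom reporter, and cells labelled with the red protein in both groups were purified by flow cytometry. Not given in the sources used here are the full cross of the controls, the age of the mice and the number of animals behind each replicate. Nog was at 1.97, 0.871 and 1.09 FPKM in control replicates 1 to 3 and at 2734, 2289 and 2281 FPKM in noggin replicates 1 to 3, so each library matched its label. FPKM is a count of fragments scaled by transcript length and by library size. Parietal cell genes were high in all 6 libraries: Atp4b, the β subunit of the acid pump, lay between 16877 and 25184 FPKM. Atp4a, the catalytic subunit, lay between 13385 and 16218 FPKM in the controls and between 5433 and 7619 FPKM in the noggin libraries. Genes of chief cells, the pepsinogen-secreting neighbours of parietal cells, were higher still in sum: 5 of them gave 60876 to 111923 FPKM in the controls and 131127 to 357402 FPKM in the noggin libraries, against 27956 to 38731 FPKM for 8 parietal cell genes over all libraries.

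Leukocytes arise in the bone marrow, and nearly all of them carry the surface phosphatase CD45, encoded by Ptprc. T cells read antigen through a receptor built with CD3 chains and signal through Lck and Zap70, and B cells do so through CD79. Macrophages of the mucosa take up debris, secrete the C1q complement chains and lysozyme, and depend on the receptor CSF1R. The gastric lamina propria holds resident macrophages, mast cells and lymphocytes close to the glands from which parietal cells are dissociated.

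Depth behind the values was known only in part. In control replicates 2 and 3 and in noggin replicates 2 and 3, between 54.5% and 59.7% of low values fell within 0.1 read of a whole number of reads, against 20% for evenly spread values. The FPKM worth of 1 read was chosen from these same values to favour whole numbers. The 20% holds for a worth set beforehand, so it is too low a mark for these shares. In these 4 libraries 1 read on 1 kilobase of transcript was worth 0.0226, 0.0265, 0.0315 and 0.0486 FPKM in that order. Read numbers given here come from that scale and are approximate, since they assume the principal transcript, and amplified reads are not independent molecules. Noggin replicate 3 stood apart: it listed 0 for 542 of the 10644 genes tested, and the other libraries did so for 19 to 34. Of the 38 genes, 18 were listed at 0 in noggin replicate 3, and between 5 and 15 in each of the others. Of 20 leukocyte genes above 0 in every control, 5 (25.0%) were listed at 0 in noggin replicate 3, beside 2110 of 14562 genes (14.5%) in the whole table.

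Promoter windows of 300 bases, from 250 before to 50 after the annotated start, were available from RefSeq (GRCm38.p6) for 29 of the 38 genes. Those printed here belong to macrophage and pan-leukocyte genes that were highest in noggin replicate 3, and to Lcp1, which differed from them in both level and direction. Capitals mark the letters GAGGAA, the core of sites bound by PU.1, a transcription factor of myeloid cells, read on either strand (TTCCTC on the other). C1qb is at chr4:136886151-136886450 on the minus strand, C1qc at chr4:136892865-136893164 on the minus strand, Laptm5 at chr4:130913066-130913365 on the plus strand and Lyz2 at chr10:117282223-117282522 on the minus strand.
C1qb: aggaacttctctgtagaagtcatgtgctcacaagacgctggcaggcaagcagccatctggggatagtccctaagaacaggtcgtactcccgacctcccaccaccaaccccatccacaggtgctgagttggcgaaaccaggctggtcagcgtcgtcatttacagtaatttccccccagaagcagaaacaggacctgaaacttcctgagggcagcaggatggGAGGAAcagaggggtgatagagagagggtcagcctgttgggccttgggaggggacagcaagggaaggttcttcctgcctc
C1qc: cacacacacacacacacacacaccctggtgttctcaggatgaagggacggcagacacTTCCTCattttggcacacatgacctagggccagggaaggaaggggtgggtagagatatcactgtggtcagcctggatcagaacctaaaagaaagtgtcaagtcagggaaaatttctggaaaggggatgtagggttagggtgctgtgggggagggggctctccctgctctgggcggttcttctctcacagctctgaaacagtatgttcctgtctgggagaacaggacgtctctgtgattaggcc
Laptm5: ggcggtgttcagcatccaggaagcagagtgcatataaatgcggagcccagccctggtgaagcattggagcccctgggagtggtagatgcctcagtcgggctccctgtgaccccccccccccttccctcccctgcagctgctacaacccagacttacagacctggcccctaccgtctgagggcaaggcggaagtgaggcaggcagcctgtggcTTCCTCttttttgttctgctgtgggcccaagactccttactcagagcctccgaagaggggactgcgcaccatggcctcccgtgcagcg
Lyz2: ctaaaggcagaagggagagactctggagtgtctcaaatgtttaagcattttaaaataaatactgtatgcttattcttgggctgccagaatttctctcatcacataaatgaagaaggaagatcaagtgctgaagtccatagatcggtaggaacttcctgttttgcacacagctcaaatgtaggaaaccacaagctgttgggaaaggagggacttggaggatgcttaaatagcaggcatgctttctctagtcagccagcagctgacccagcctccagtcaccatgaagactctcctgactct

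With 1 window per gene, at the start farthest upstream, the core was in 18 of the 29 leukocyte windows (62.1%). It was in 9289 of all 32851 windows (28.3%), which can hold several starts of a gene, so the 2 shares are not counted alike. The 18 were not all myeloid genes: the T cell and NK cell genes Cd3d, Cd3e, Cd8a, Gzma, Lck and Zap70 and the B cell gene Cd79a were among them. Each of the C1qb, C1qc and Laptm5 windows held 1 match, and the Lyz2 window held none. A match only describes the letters.

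Lcp1 has 2 annotated starts, and the windows differ in base composition. The first, at chr14:75130873-75131172 on the plus strand, has 66.3% G and C, and the second, which starts 5302 bases further on at chr14:75136175-75136474, has 44.3%. They are shown because Lcp1 was the most abundant of the 38 genes in every control.
Lcp1, first start: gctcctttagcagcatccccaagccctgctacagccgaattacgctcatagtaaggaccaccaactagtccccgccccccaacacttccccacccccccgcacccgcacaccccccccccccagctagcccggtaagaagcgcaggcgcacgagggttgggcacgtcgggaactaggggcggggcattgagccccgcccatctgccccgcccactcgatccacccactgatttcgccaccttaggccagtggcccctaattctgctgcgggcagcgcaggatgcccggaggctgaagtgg
Lcp1, second start: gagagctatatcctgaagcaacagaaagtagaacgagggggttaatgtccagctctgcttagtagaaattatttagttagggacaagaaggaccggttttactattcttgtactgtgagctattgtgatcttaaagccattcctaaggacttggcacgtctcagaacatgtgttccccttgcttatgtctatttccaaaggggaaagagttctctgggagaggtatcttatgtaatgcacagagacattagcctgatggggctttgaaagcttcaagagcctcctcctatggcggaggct

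Neither window of Lcp1 held the GAGGAA core, nor did the 1 window of Ptpn6, and of 3 windows of Arhgdib the third held 1 match. Lcp1, Ptpn6 and Arhgdib were the only ones of the 38 at or above 1 FPKM in all control libraries.

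Most leukocyte transcripts were close to absent. Over all 6 libraries, 19 of the 38 genes stayed below 1 FPKM, and Cd2, Gzma, S100a8 and S100a9 were listed at 0 throughout. Between 3 and 4 genes reached 1 FPKM in a control library, against 11, 13 and 15 in noggin replicates 1, 2 and 3. All 3 noggin values lay above all 3 control values for 11 genes, out of 34 listed above 0 somewhere, and below them for Lcp1 alone. The 11 were macrophage genes (C1qa, C1qb, Lyz2, Tyrobp) and general leukocyte genes (Ptprc, Laptm5, Cd52, Cd53, Cd37, Lcp2, Rac2). Among all genes listed above 0, 13% lay higher in this way, and 12.1% lay lower. Of the 38, no gene of T cells, B cells or neutrophils separated the groups. Total FPKM was itself higher in the noggin libraries (797168 to 1188186) than in the controls (595736 to 669124). With all libraries scaled to the same total, 8 of the 34 lay higher, beside 3.21% of all genes listed above 0. These 8 were all among the 11, and Ptprc, Cd53 and Lyz2 no longer lay higher. Lcp1 and Ptpn6 then lay lower, beside 26.2% of all genes.

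Of the 38 genes 9 passed the filter of at least 1 FPKM in at least 3 libraries. For 6 of the 9 it was the noggin libraries alone that met it, so they could hardly have differed the other way. By limma on log2(FPKM + 1), 0 of the 9 were called changed at an adjusted p under 0.05, with the p adjusted over all 10644 genes, of which 2.44% were called. At an unadjusted p under 0.05 there were 7, 6 higher and 1 lower, beside 26.7% of all genes tested. The 6 higher ones were the same 6 that met the filter through the noggin libraries alone. The median log2 fold change was 1.84 over the 9 genes and -0.03 over all genes tested. These 6 genes fixed the sign of the first median in advance, so the 2 medians are not alike. In bulk RNA, fewer cells of a type and less RNA per cell cannot be told apart, and the same holds for more.

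**Figure D1:**
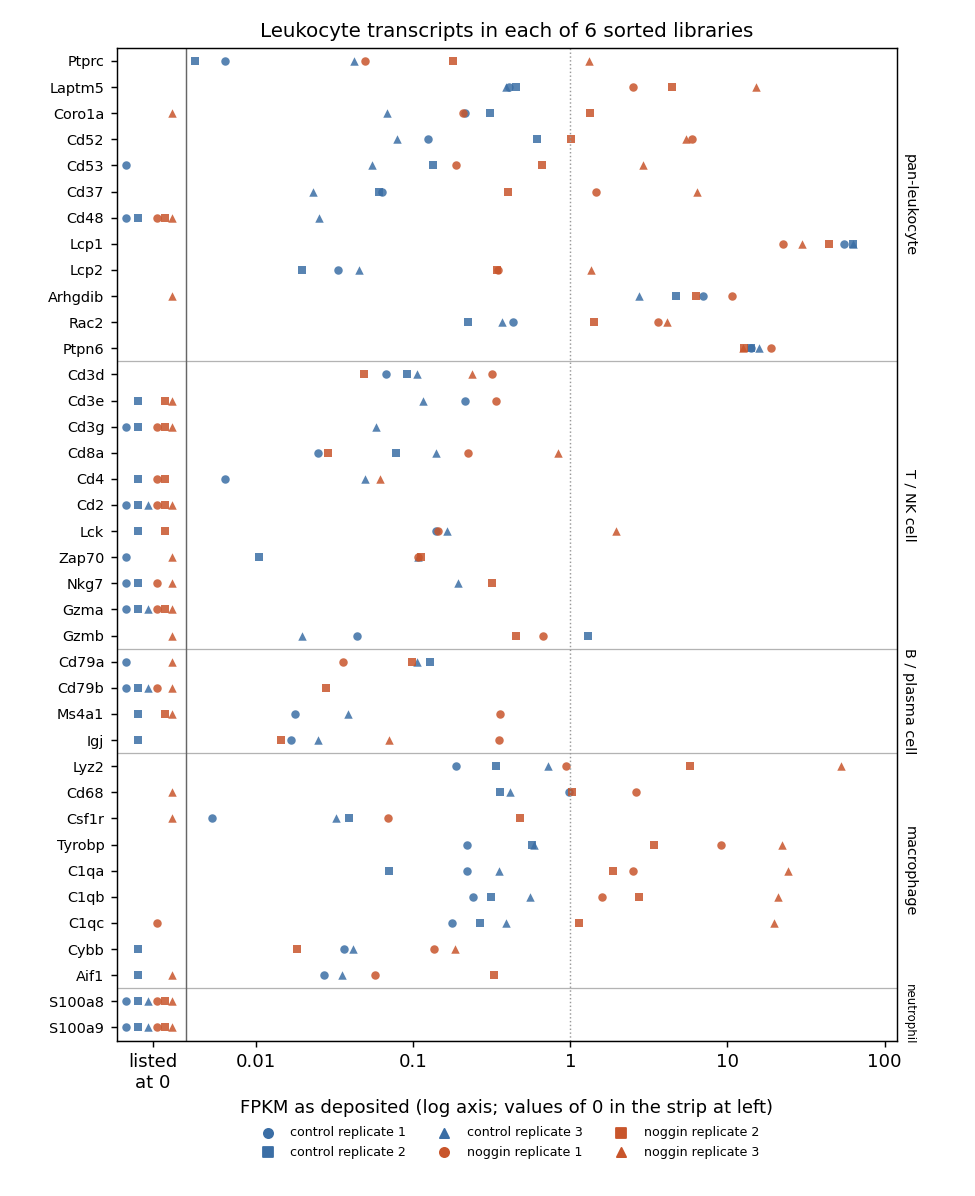
FPKM of the 38 leukocyte genes (rows, by lineage) in each of the 6 libraries, on a log axis, with values of 0 in a strip at left and a dotted line at 1 FPKM. Blue marks controls and orange marks noggin, with 1 symbol for each replicate. Lcp1, Ptpn6 and Arhgdib lie at the right in the controls, and the noggin points of Laptm5, Rac2, Tyrobp, C1qa, C1qb and Lyz2 lie to the right of all control points.

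Among the 12 pan-leukocyte genes, 3 were expressed in the controls and the others were nearly silent there. Lcp1 encodes L-plastin, a protein that bundles actin (chromosome 14, 75131101 to 75230842 in mm10). It was at 55.4, 62.9 and 63.1 FPKM in control replicates 1 to 3 and at 22.6, 44.3 and 29.8 FPKM in noggin replicates 1 to 3. All noggin libraries lay below all controls, and noggin replicate 2 was nearest to them. The group means were 60.5 ± 4.40 and 32.2 ± 11.1 FPKM (SD, n = 3 each). The log2 fold change was -0.94 (SE 0.261), with an unadjusted limma p of 0.00766 and an adjusted p of 0.0952. It rested on many reads, in the libraries whose depth could be read from 2353 in noggin replicate 3 to 10693 in control replicate 2. Without noggin replicate 2, when 18.9% of all genes were called, the difference was -1.19 with an adjusted p of 0.0210 by limma. Leaving out any other single library gave an adjusted limma p between 0.101 and 0.376.

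Ptpn6, which encodes the phosphatase SHP-1 (chromosome 6, 124720707 to 124738714), showed no such shift. It stood at 14.2, 14.2 and 15.9 FPKM in control replicates 1 to 3 and at 18.9, 12.7 and 12.6 FPKM in noggin replicates 1 to 3. The groups overlapped, with noggin replicate 1 above every control and the other noggin libraries below. The log2 fold change was -0.02 (SE 0.251, limma, adjusted p = 0.959), and its sign turned when control replicate 3 (0.027), noggin replicate 2 (0.062) or noggin replicate 3 (0.071) was left out.

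Arhgdib encodes a GDP dissociation inhibitor of small GTPases and is enriched in blood cells (chromosome 6, 136923655 to 136941899). It was at 7.0, 4.74 and 2.71 FPKM in control replicates 1 to 3, at 10.6 and 6.35 FPKM in noggin replicates 1 and 2, with 0 listed in noggin replicate 3. The groups overlapped, and the noggin libraries held both the highest and the lowest value. At the depth of noggin replicate 3, 1 read on this transcript was worth 0.0407 FPKM, and noggin replicate 2 held about 240 reads. Its log2 change of -0.33 (SE 0.863; limma, adjusted p = 0.824) turned to 0.74 (SE 0.376, adjusted p = 0.214) without noggin replicate 3. Pde6h, which overlaps Arhgdib on the opposite strand, was listed at 0 in all 6 libraries.

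The remaining 9 pan-leukocyte genes summed to 1.28, 1.82 and 1.09 FPKM in control replicates 1 to 3 and to 14.3, 9.76 and 36.7 FPKM in noggin replicates 1 to 3. These sums do not overlap. This split of the list was made after the values had been seen. Lcp1, Ptpn6 and Arhgdib together gave 76.6, 81.9 and 81.7 FPKM in the controls and 52.1, 63.4 and 42.3 FPKM in the noggin libraries, so the sum of all 12 genes lay between 66.5 and 83.7 FPKM everywhere.

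Laptm5 encodes a lysosomal membrane protein of blood cells (chromosome 4, 130913125 to 130936141). It was at 0.407, 0.449 and 0.387 FPKM in control replicates 1 to 3 and at 2.49, 4.41 and 15.1 FPKM in noggin replicates 1 to 3. Every noggin library was above every control, and noggin replicate 3 was the highest. The means were 0.414 ± 0.0312 and 7.33 ± 6.79 FPKM (SD, n = 3 each), a ratio of 17.7. On the log2 scale the change was 2.25 (SE 0.546), with an unadjusted limma p of 0.00365 and an adjusted p of 0.0763. About 51.6 and 38.0 reads stood behind control replicates 2 and 3, and 364 and 808 reads behind noggin replicates 2 and 3.

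Rac2, the small GTPase of blood cells that assembles the oxidase of phagocytes, followed the same order of groups (chromosome 15, 78559167 to 78572783). Its values were 0.431, 0.224 and 0.367 FPKM in control replicates 1 to 3 and 3.62, 1.42 and 4.15 FPKM in noggin replicates 1 to 3. The groups did not overlap, and noggin replicate 2 was the lowest of its group. This was a log2 fold change of 1.53 (SE 0.363), with an unadjusted limma p of 0.00322 and an adjusted p of 0.0743.

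Cd52 encodes a small glycosylated surface peptide of lymphocytes and myeloid cells (chromosome 4, 134082448 to 134095082). It was at 0.124, 0.617 and 0.0789 FPKM in control replicates 1 to 3 and at 5.97, 1.01 and 5.46 FPKM in noggin replicates 1 to 3. The groups did not overlap, although noggin replicate 2 came near control replicate 2. Its log2 fold change was 1.84 (SE 0.513), with an unadjusted limma p of 0.00757 and an adjusted p of 0.0952. Aim1l overlaps Cd52 on the opposite strand, and it was at most at 0.465 FPKM, in noggin replicate 3.

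Ptprc, the CD45 gene itself, was low throughout. It was at 0.00630, 0.00407 and 0.0421 FPKM in control replicates 1 to 3 and at 0.0493, 0.180 and 1.30 FPKM in noggin replicates 1 to 3. Noggin replicate 3 alone passed 1 FPKM, and noggin replicate 1 barely exceeded control replicate 3. In reads, control replicate 2 held about 1.03 on the whole transcript, and noggin replicate 3 about 154.

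Cd37, a tetraspanin of leukocytes, was at 0.0628, 0.0602 and 0.0231 FPKM in control replicates 1 to 3 and at 1.45, 0.403 and 6.39 FPKM in noggin replicates 1 to 3. Cd53, another tetraspanin, was listed at 0 in control replicate 1, stood at 0.134 and 0.0545 FPKM in control replicates 2 and 3, and reached 0.186, 0.656 and 2.91 FPKM in noggin replicates 1 to 3. Lcp2, which encodes the adaptor SLP-76 of T cells, mast cells and platelets, was at 0.0330, 0.0196 and 0.0451 FPKM in control replicates 1 to 3 and at 0.345, 0.341 and 1.35 FPKM in noggin replicates 1 to 3. In all 3 genes the groups were apart, noggin replicate 3 was the highest library, and the filter kept them out of the test. Tead2, on the strand opposite Cd37, was at 3.94 FPKM in noggin replicate 1 and at most at 1.09 FPKM in the other libraries, so part of the Cd37 value there cannot be assigned to a strand.

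Coro1a and Cd48 did not follow. Coro1a, which encodes the actin regulator coronin 1A, was at 0.212, 0.309 and 0.0678 FPKM in control replicates 1 to 3, at 0.207 and 1.34 FPKM in noggin replicates 1 and 2, with 0 listed in noggin replicate 3. It overlaps Bola2, which lay between 82.1 and 405 FPKM. Cd48, a surface ligand of the 2B4 receptor, was above 0 in control replicate 3 only, at 0.0252 FPKM. Neither gene separated the groups.

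The 9 macrophage and monocyte genes gave the widest range between libraries. They summed to 2.09, 1.94 and 3.12 FPKM in control replicates 1 to 3 and to 16.9, 16.8 and 140.2 FPKM in noggin replicates 1 to 3. Noggin replicates 1 and 2 had nearly the same sum, and noggin replicate 3 was far above them. The make-up of that sum differed. C1qa, C1qb, C1qc and Lyz2 gave 5.03 and 11.5 FPKM in noggin replicates 1 and 2, and the other 5 genes gave 11.9 and 5.27 FPKM. As a difference of mean log2(sum + 1) the groups were 3.41 apart, and 2.42 apart without noggin replicate 3. With 3 libraries against 3 an exact permutation test cannot give a p under 0.1, and none was run on these sums.

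Tyrobp had the lowest p of the 38 genes. It encodes DAP12, the adaptor that pairs with activating receptors of myeloid and NK cells (chromosome 7, 30413760 to 30417585). It was at 0.218, 0.566 and 0.587 FPKM in control replicates 1 to 3 and at 9.04, 3.42 and 22.3 FPKM in noggin replicates 1 to 3. Every noggin library exceeded every control, and the noggin values spread widely. The means were 0.457 ± 0.207 and 11.6 ± 9.71 FPKM (SD, n = 3 each), a ratio of 25.4. The log2 fold change was 2.80 (SE 0.578), with an unadjusted limma p of 0.00143 and an adjusted p of 0.0537, just outside the threshold.

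The 3 chains of C1q, which opens the classical complement pathway, lie next to each other on chromosome 4. C1qa (136895917 to 136898803) was at 0.220, 0.0701 and 0.350 FPKM in control replicates 1 to 3 and at 2.51, 1.88 and 24.2 FPKM in noggin replicates 1 to 3. C1qb (136880129 to 136886187) was at 0.241, 0.311 and 0.550 FPKM in control replicates 1 to 3 and at 1.59, 2.72 and 21.0 FPKM in noggin replicates 1 to 3. For both genes the groups did not overlap and noggin replicate 3 stood several times above the rest. C1qc (136889804 to 136893065) was at 0.176, 0.265 and 0.389 FPKM in control replicates 1 to 3, listed at 0 in noggin replicate 1, and at 1.13 and 19.8 FPKM in noggin replicates 2 and 3. The 0 in noggin replicate 1 made its groups overlap, although C1qa and C1qb were above all controls in that same library.

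The log2 fold change was 2.39 for C1qa (SE 0.774), with an unadjusted limma p of 0.0157 and an adjusted p of 0.118. For C1qb it was 2.13 (SE 0.743), with an unadjusted p of 0.0219 and an adjusted p of 0.131. About 519 reads stood behind C1qa in noggin replicate 3 and 62.0 in noggin replicate 2, against 3.22 and 13.7 in control replicates 2 and 3. Since the RNA was amplified, these reads do not give the number of starting molecules.

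Lyz2, which encodes the lysozyme of macrophages and other myeloid cells, had the widest range in FPKM of the 38 genes (chromosome 10, 117277331 to 117282321). It was at 0.187, 0.336 and 0.720 FPKM in control replicates 1 to 3 and at 0.941, 5.77 and 52.6 FPKM in noggin replicates 1 to 3. The groups did not overlap, but noggin replicate 1 was close to control replicate 3. Only 2 libraries reached 1 FPKM, so Lyz2 was not tested. C1qa, C1qb, C1qc and Lyz2 together gave 117.7 FPKM in noggin replicate 3, which was 52.9% of the sum of all 38 genes there. In the other 5 libraries these 4 genes gave between 1.02% and 12.6%.

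Of the 5 other macrophage genes, Tyrobp and Cybb were also highest in noggin replicate 3, and Cd68, Csf1r and Aif1 were listed at 0 there. Cd68, a lysosomal glycoprotein used as a general macrophage marker, was at 0.979, 0.357 and 0.411 FPKM in control replicates 1 to 3, at 2.60 and 1.03 FPKM in noggin replicates 1 and 2, with 0 listed in noggin replicate 3. Csf1r, the receptor that macrophages need to survive, was at 0.00525, 0.0391 and 0.0322 FPKM in control replicates 1 to 3, at 0.0688 and 0.479 FPKM in noggin replicates 1 and 2, with 0 also listed in noggin replicate 3. Both were highest in noggin libraries and lowest in one. The library with the highest C1q and lysozyme values thus listed 0 for these 2 defining genes of macrophages. There 1 read was worth 0.0395 FPKM on Cd68 and 0.0103 FPKM on Csf1r, and noggin replicate 2 held about 40.0 and 71.5 reads of them.

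Cybb, the catalytic subunit of the phagocyte oxidase, was highest in noggin replicate 3 at only 0.184 FPKM. Aif1, the calcium-binding protein IBA1, reached 0.328 FPKM in noggin replicate 2 and was listed at 0 in noggin replicate 3. Both had overlapping groups. Csf1r overlaps Hmgxb3 on the opposite strand, which was at 5.46 to 6.21 FPKM in the controls and at 1.36, 4.22 and 0.397 FPKM in noggin replicates 1 to 3.

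**Figure D2:**
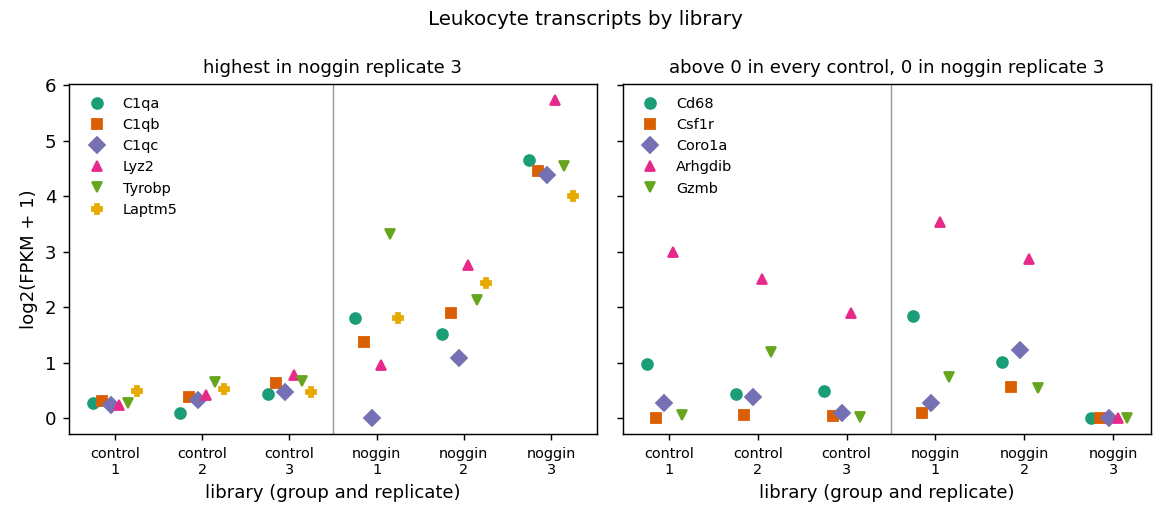
log2(FPKM + 1) by library for 6 genes that were highest in noggin replicate 3 (left) and for the 5 genes above 0 in every control and listed at 0 in noggin replicate 3 (right). Each point is 1 gene in 1 library, and the vertical line separates controls from noggin. The genes at left reach 15.1 to 52.6 FPKM in noggin replicate 3, where the genes at right lie on 0.

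Further macrophage and dendritic cell genes, 22 in number, showed the same unevenness. Of these 2 were tested and 0 were called by limma (2 at an unadjusted p under 0.05), and all noggin values lay above all controls for 8 of the 22, beside the 13% of all genes given above. They lay below for 1, Zbtb46, a transcription factor of dendritic cells, at 0.141, 0.136 and 0.182 FPKM in control replicates 1 to 3, at 0.0477 FPKM in noggin replicate 1 and listed at 0 in the other noggin libraries. Ctss, the lysosomal protease cathepsin S, was at 0.219, 0.249 and 0.185 FPKM in control replicates 1 to 3 and at 2.60, 3.13 and 20.7 FPKM in noggin replicates 1 to 3, a log2 change of 2.49 (SE 0.660; limma, adjusted p = 0.0878). Cd14, a co-receptor for lipopolysaccharide, was at 1.59, 1.63 and 0.785 FPKM in control replicates 1 to 3 and at 7.23, 5.14 and 17.96 FPKM in noggin replicates 1 to 3, a change of 2.10 (SE 0.466, limma, adjusted p = 0.0647). In both genes the groups were apart, with noggin replicate 3 the highest. Ctss met the filter through the noggin libraries alone. Ms4a7, a membrane protein of macrophages, was at 22.5 FPKM in noggin replicate 3 and at most at 0.697 FPKM elsewhere. Emr1, which encodes the macrophage antigen F4/80, reached 1.31 FPKM in noggin replicate 3 and 0.262 FPKM in noggin replicate 2. Against these, the mannose receptor Mrc1 was listed at 0 in noggin replicate 3, and the Fc receptor Fcgr1 was listed at 0 in all noggin libraries. Itgam, the CD11b integrin chain, did not pass 0.0407 FPKM in any library.

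T cell and NK cell genes stayed low, and none of the 11 was tested. They summed to 0.495, 1.48 and 0.950 FPKM in control replicates 1 to 3 and to 1.79, 0.958 and 3.10 FPKM in noggin replicates 1 to 3. The sums overlapped, since noggin replicate 2 lay below control replicate 2. The CD3 chains of the T cell receptor complex were at or near 0. Cd3e was at 0.214 and 0.115 FPKM in control replicates 1 and 3, at 0.336 FPKM in noggin replicate 1, and listed at 0 in the other 3 libraries. Cd3g was above 0 in control replicate 3 only, at 0.0577 FPKM. Cd3d was above 0 in every library, between 0.0488 FPKM in noggin replicate 2 and 0.316 FPKM in noggin replicate 1.

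The co-receptors differed little in level from these. Cd8a was at 0.0248, 0.0779 and 0.139 FPKM in control replicates 1 to 3 and at 0.224, 0.0285 and 0.839 FPKM in noggin replicates 1 to 3, with groups that overlapped through noggin replicate 2. Cd4 did not pass 0.0611 FPKM in any library. The proximal kinases of the receptor were as uneven: Lck was at 0.139 and 0.164 FPKM in control replicates 1 and 3, at 0.143 and 1.96 FPKM in noggin replicates 1 and 3, with 0 listed in replicate 2 of both groups. Noggin replicate 3 was the high library for Lck, with about 88.1 reads, while Zap70 was listed at 0 there and stayed at or below 0.111 FPKM elsewhere.

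Of the cytotoxic genes, Gzmb (granzyme B) was highest in a control. It was at 0.0438, 1.30 and 0.0195 FPKM in control replicates 1 to 3, at 0.667 and 0.453 FPKM in noggin replicates 1 and 2, with 0 listed in noggin replicate 3. Control replicate 2 held about 82.8 reads and control replicate 3 about 1.06, so the highest value and the lowest above 0 were both in controls. Granzymes are a family of related genes, and how the authors counted reads shared between them was not stated in the labels. Nkg7, a granule protein of NK and cytotoxic T cells, was at 0.194 FPKM in control replicate 3 and 0.316 FPKM in noggin replicate 2 and listed at 0 in the other 4 libraries.

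A further 28 genes of T and NK cells were read, and none passed the filter. In them it was noggin replicate 1, not replicate 3, that was high: they summed to 13.2, 5.42 and 0.529 FPKM in noggin replicates 1 to 3 and to 1.03, 1.17 and 2.63 FPKM in control replicates 1 to 3. Lat, the adaptor downstream of the T cell and mast cell receptors, reached 4.27 FPKM in noggin replicate 1 and 1.79 FPKM in noggin replicate 2, was listed at 0 in noggin replicate 3, and lay at most at 0.139 FPKM in a control. Il2rg, the common γ chain of cytokine receptors, reached 2.09 FPKM in noggin replicate 1 and 0.742 FPKM in noggin replicate 2, was listed at 0 in noggin replicate 3, and lay at most at 0.218 FPKM in a control. For both genes the 0 in noggin replicate 3 made the groups overlap. Ncr1 and Klrd1, receptors of NK cells, and the T cell antigen Cd5 were listed at 0 in all 6 libraries.

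The 4 B cell and plasma cell genes summed to between 0.0343 and 0.168 FPKM in the controls and to 0.742, 0.140 and 0.0698 FPKM in noggin replicates 1 to 3. Only noggin replicate 1 lay above the controls. Ms4a1, which encodes CD20, was at 0.357 FPKM there and did not pass 0.0382 FPKM in the other libraries. Igj, the joining chain of secreted antibodies, was at 0.349 FPKM in the same library, at 0.0698 FPKM in noggin replicate 3 and at most at 0.0249 FPKM in the others. The receptor chains Cd79a and Cd79b did not pass 0.128 FPKM, and Cd79b was above 0 in noggin replicate 2 only.

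Among 13 further B cell genes 3 were tested, with 0 called by limma and 0 at an unadjusted p under 0.05. Outside the test, 1 gene of the 13 lay wholly higher in noggin and 1 wholly lower. Among all genes listed above 0, 13% lay wholly higher and 12.1% wholly lower. Cd22, an inhibitory receptor of B cells, was at 0.00997, 0.0272 and 0.0752 FPKM in control replicates 1 to 3 and at 0.309, 0.248 and 0.340 FPKM in noggin replicates 1 to 3. Vpreb3, a gene of early B cells, was at 0.101, 0.0515 and 0.119 FPKM in the controls and listed at 0 in all noggin libraries. Sdc1, a proteoglycan that marks plasma cells and also covers epithelia, was the only abundant one. It was at 57.5, 49.4 and 50.8 FPKM in control replicates 1 to 3 and at 42.8, 54.8 and 31.8 FPKM in noggin replicates 1 to 3, with overlapping groups (log2 fold change -0.31, limma, adjusted p = 0.416). Cd72, a co-receptor of B cells, stayed between 2.10 and 3.34 FPKM in all 6 libraries, and its groups overlapped too.

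S100a8 and S100a9, the calgranulins of neutrophils, were listed at 0 in all 6 libraries. In noggin replicate 3, where a read was worth most, 1 read would have given 0.1 FPKM on S100a8 and 0.0936 FPKM on S100a9. Of 15 further genes of neutrophils and eosinophils, 5 were likewise listed at 0 throughout and 0 were called by limma out of 1 tested (0 at an unadjusted p under 0.05). That gene, the chemokine receptor Cxcr2, was at 0.431, 0.448 and 1.12 FPKM in control replicates 1 to 3 and at 3.23, 0.358 and 4.34 FPKM in noggin replicates 1 to 3, with groups that overlapped through noggin replicate 2.

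Seen by library, the make-up of the leukocyte transcripts differed more than their total. All 38 genes summed to 80.5, 87.2 and 87.0 FPKM in control replicates 1 to 3 and to 85.9, 91.1 and 222.4 FPKM in noggin replicates 1 to 3. Lcp1, Ptpn6 and Arhgdib gave 95.2%, 93.8% and 93.9% of the total in the controls, and 60.7%, 69.7% and 19.0% in noggin replicates 1 to 3. Macrophage genes took from 2.23% to 3.58% in the controls and 19.7%, 18.4% and 63.1% in noggin replicates 1 to 3. The remaining 35 genes, taken without Lcp1, Ptpn6 and Arhgdib, summed to 3.89, 5.37 and 5.33 FPKM in the controls and to 33.8, 27.6 and 180.1 FPKM in the noggin libraries. In sum, noggin replicates 1 and 2 were again close to each other and noggin replicate 3 apart.

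**Figure D3:**
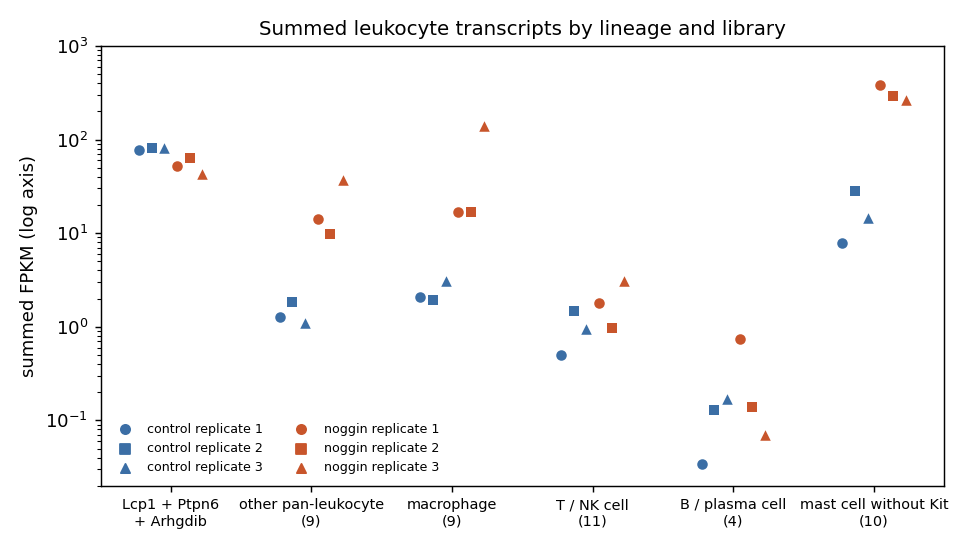
Summed FPKM by gene group (number of genes in brackets) and library, on a log axis. Blue marks controls and orange marks noggin, with 1 symbol for each replicate, and the neutrophil genes, at 0 throughout, are not drawn. The macrophage sum is highest in noggin replicate 3 (140.2 FPKM), whereas the mast cell sum is highest in noggin replicate 1 (385.4 FPKM).

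Mast cell genes moved with the groups as well, and several of the pan-leukocyte genes are also genes of mast cells. Of 11 mast cell genes 8 were tested, of which limma called 6 higher and 1 lower, beside 2.44% of all genes tested. In control replicates 1 and 3 only 5 of the 11 reached 1 FPKM. Some of the 8 thus passed the filter only with noggin libraries counted, which favours calls of higher. The 6 encode granule proteases (Tpsab1, Tpsb2, Mcpt1, Mcpt2, Cma1 and Cpa3), and the gene that fell was Kit, the receptor for stem cell factor (log2 change -2.0; limma, adjusted p = 0.0181). Without Kit, which was set aside after its values had been seen, the list summed to 7.79, 27.9 and 14.5 FPKM in control replicates 1 to 3 and to 385.4, 295.0 and 262.2 FPKM in noggin replicates 1 to 3. The sums were apart, and 7 of these 10 genes lay wholly higher in noggin, beside 13% of all genes listed above 0. Tpsab1, a tryptase, was at 106, 119 and 73.8 FPKM in noggin replicates 1 to 3 and at 2.15 to 3.91 FPKM in the controls (log2 fold change 4.69, limma, adjusted p = 7.34e-04). Mcpt4 and Ms4a2, the latter a chain of the IgE receptor, were listed at 0 in noggin replicate 3. That library had the lowest mast cell sum of the noggin group and the highest macrophage sum. The part of mast cell RNA in Ptprc, Laptm5, Rac2, Lcp2 and Tyrobp was not tested.

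Of 20 genes that encode partners of these receptors and adaptors, 7 were tested. Limma called 1 of them, Fcer1g, beside 2.44% of all genes tested. It encodes the γ chain shared by Fc receptors of mast cells and macrophages. Fcer1g was at 0.175, 0.406 and 0.156 FPKM in control replicates 1 to 3 and at 10.8, 3.99 and 3.40 FPKM in noggin replicates 1 to 3, a log2 change of 2.36 (SE 0.425; limma, adjusted p = 0.0429). The groups were apart, and noggin replicate 1 was the highest. Fcer1g met the filter through the noggin libraries alone, so it could hardly have been called lower. Cd74, the invariant chain of MHC class II, was at 6.64, 4.14 and 5.06 FPKM in control replicates 1 to 3 and at 8.78, 36.8 and 182 FPKM in noggin replicates 1 to 3 (2.72, limma, adjusted p = 0.124). It shared with C1q and Lyz2 the highest value in noggin replicate 3. Itgb2, the β2 integrin chain of leukocytes, was near 2 FPKM in the controls (1.95 to 2.15) and at 1.52, 3.24 and 7.51 FPKM in noggin replicates 1 to 3, so its groups overlapped.

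Transcript length also moved with the difference between groups. Over all tested genes the median log2 fold change was 0.86 for principal transcripts of 200 to 1000 bases, 0.42 for 1000 to 2000, 0.02 for 2000 to 3000 and -0.38 for longer ones. Tyrobp (564 bases) and Cd52 (514 bases) were in the shortest class, C1qa (1040) and C1qb (1088) in the next, and Lcp1 (3841) and Rac2 (3038) in the longest. With a length trend removed from each library, the log2 fold change fell to 1.84 for Tyrobp (limma, adjusted p = 0.140), 1.70 for C1qa (0.325), 1.47 for C1qb (0.383) and 0.85 for Cd52 (0.249). For Lcp1 it shrank to -0.65 (0.154), and for Arhgdib (1193 bases) it went from -0.33 to -0.93 (0.574). It was nearly unmoved at 2.25 for Laptm5 (0.111) and 1.65 for Rac2 (0.112). The cause of the length trend was not tested.

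Without noggin replicate 3, limma called Tyrobp, C1qa, Laptm5 and C1qb higher, beside 5.55% of all genes tested. In these the changes were smaller but the spread was smaller too: 2.20 for Tyrobp (adjusted p = 0.0373), 1.40 for C1qa (0.0324), 1.62 for Laptm5 (0.0324) and 1.19 for C1qb (0.0451). Without noggin replicate 2, when 18.9% of all genes were called, limma called Tyrobp (3.40, adjusted p = 0.0167), Cd52 (2.42, 0.0165) and Rac2 (1.87, 0.0174) higher and Lcp1 lower. In both fits the genes tested were those that passed the filter over all 6 libraries. The genes called higher had passed it through the noggin libraries alone. The library left out had thus helped to select them, and without it they would not have passed. Quantile normalization called Tyrobp and Laptm5 higher and Lcp1 lower, beside 4.45% of all genes. Scaling all libraries to the same total called Tyrobp, Laptm5 and Rac2 higher and Lcp1 lower, beside 8.75%, and moved the median of all genes to -0.62.

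**Figure D4:**
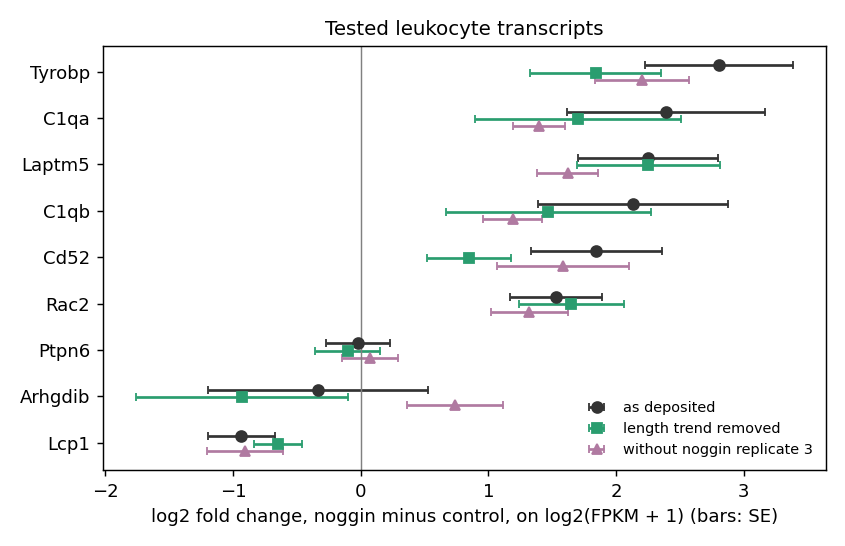
log2 fold change (noggin minus control, on log2(FPKM + 1)) of the 9 tested leukocyte genes, with SE bars, as deposited (black circles), with the length trend removed (green squares) and without noggin replicate 3 (purple triangles). The first 6 genes lie to the right of 0 under all 3, Lcp1 lies to the left, and Arhgdib moves from -0.33 to 0.74 when noggin replicate 3 is left out.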

How the data were processed

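RNA of sorted parietal cells was read in 3 control and 3 noggin libraries, grouped by the sample titles. The input was 1 ng or more of total RNA, amplified by SMART-Seq Ultra Low Input V3, and reads were single-end of 50 bases, per the labels' protocols. The values are FPKM for each gene as deposited by the authors. The build is mm10, and FastQC 0.10.0 and bcl2fastq were used, per the submitters' processing notes. Not given in the sources used here are the aligner, the program behind the FPKM and whether strand was kept, so genes that overlap on opposite strands cannot be told apart.

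Total FPKM was 595736 to 669124 in the controls and 797168 to 1188186 in the noggin libraries, and between 9381 and 10718 genes reached 1 FPKM. A filter kept the 10644 genes that reached 1 FPKM in 3 or more libraries. These were tested on log2(FPKM + 1), a scale that understates the change of low genes, in R 4.3.3 by limma 3.58.1, two-sided, allowing the variance to follow the mean, with group as its single term. The Benjamini-Hochberg adjustment ran over all tested genes, and a gene was called at an adjusted p under 0.05. The fit was first run on simulated data with planted changes and the same spread for every gene. That run checked the recovery of planted changes only, since it did not mirror the uneven libraries here. The sample titles call the replicates biological, without saying whether each was 1 animal or a pool, so p-values reflect how far these libraries spread and no more. Same-numbered libraries were not treated as pairs.

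Symbols were matched to GENCODE M21 (GRCm38, the build of mm10): 20911 by symbol, 1914 by an older symbol and 459 not at all. Length is that of the principal transcript. Whole reads were estimated from genes with 1 transcript of at least 1000 bases, over values of up to 5 reads, and could not be resolved in control replicate 1 and noggin replicate 1. The 38 genes and all lists were chosen with earlier results of these data known. Of the 38, genes with a group mean of at least 1 FPKM are given in every library and the others by their range or highest library. From other lists, called genes and up to 3 further tested ones are named. Untested genes of other lists, and some tested ones, were chosen to be named after their values were seen. Alternatives were other pseudocounts, filters and scalings, a length correction, limma without the trend, a replicate block and leaving out each library. Fits that left out 1 library kept the genes that passed the filter over all 6 libraries.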

Additional observations from a re-analysis of the deposited data

How the results depend on the processing

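With pseudocounts of 0.1 and 0.01 FPKM, limma called 85 and 72 genes of the whole table higher in noggin and 26 and 21 lower, against 186 and 74 as reported. The counts were 92 and 26 with a filter of 0.1 FPKM, 8 and 4 with no filter, 66 and 17 without the trend, and 63 and 20 with the length correction. Quantile normalization called 231 lower, scaling to the same total 827, and the replicate block 32. Leaving out 1 library gave 4 to 1187 higher and 5 to 825 lower. Of the 38 leukocyte genes 0 were called as reported. Quantile normalization called 2 higher and 1 lower, scaling to the same total 3 higher and 1 lower, and leaving out 1 library 0 to 4 higher and 0 to 1 lower. Correlations of the deviations of same-numbered libraries were 0.105, -0.141 and 0.00519. Those of other pairs ran from -0.129 to 0.120. No pairing was seen, but so few libraries cannot show that same-numbered ones were prepared apart. The replicate block called 1 of the leukocyte genes higher, Tyrobp, with an adjusted p of 0.0433. Lcp1 was the 1 gene with all noggin values below the controls, and the count was 1 to 2 when 1 library was left out and 2 after scaling. The difference in the pan-leukocyte sum, -0.16 on log2(sum + 1), was -0.33 after quantile normalization and -0.87 after scaling. Arhgdib turned to 0.033 under quantile normalization and ranged from -1.03 to 0.74 (without noggin replicate 3) when 1 library was left out. Ptpn6 ranged from -0.205 to 0.0712, turning to 0.027, 0.062 and 0.0712 without control replicate 3, noggin replicate 2 and noggin replicate 3. The other 7 tested genes kept their sign under every alternative that gave a value. For 6 of these 7 the noggin libraries alone met the filter of the reported fit, so their sign could hardly have turned. The cause of these shifts was not tested. The length correction was not run on overlaps or sums, since its trend is fitted to tested genes only. Depth limits the lowest genes most: 1 read is worth more FPKM in noggin replicate 3 than in the other libraries where this could be read.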

Other observations

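Red cell and platelet genes were read beside the leukocyte genes. The 10 genes of this list summed to 1.45, 5.01 and 0.902 FPKM in control replicates 1 to 3 and to 76.3, 16.4 and 12.3 FPKM in noggin replicates 1 to 3, so the sums did not overlap and noggin replicate 1 was the highest. Beta-s, a β-globin, was at 0.303, 1.98 and 0.217 FPKM in control replicates 1 to 3 and at 40.4, 7.20 and 3.55 FPKM in noggin replicates 1 to 3, with a log2 fold change of 2.79 (limma, adjusted p = 0.0991). Hba-a1, an α-globin, was at 20.3 FPKM in noggin replicate 1 and did not pass 1.09 FPKM elsewhere. The globins are near-identical copies, so the split of reads between them is uncertain. Pf4, a platelet chemokine, reached 2.42 FPKM in noggin replicate 1 and 5.63 FPKM in noggin replicate 3, was listed at 0 in noggin replicate 2, and at most at 0.0615 FPKM in a control.

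Alox5ap encodes the protein that presents arachidonic acid to 5-lipoxygenase, in tuft cells and in leukocytes alike. It was at 1.38, 0.536 and 0.509 FPKM in control replicates 1 to 3 and at 8.26, 3.85 and 7.81 FPKM in noggin replicates 1 to 3. Of the controls only replicate 1 reached 1 FPKM, so Alox5ap met the filter only with noggin libraries counted. Limma called it higher (log2 fold change 2.05, SE 0.383, adjusted p = 0.0444), and with the length trend removed it was at 1.49 (adjusted p = 0.0992). It was the 1 gene called among 6 tested of 14 tuft cell genes, beside 2.44% of all genes tested.

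Genes of stroma and endothelium stayed low. The 14 genes summed to 2.07, 1.06 and 1.73 FPKM in control replicates 1 to 3 and to 2.62, 1.39 and 7.57 FPKM in noggin replicates 1 to 3. Pecam1, which endothelium shares with platelets and leukocytes, made up 5.70 FPKM of the sum in noggin replicate 3, whereas Cdh5, the cadherin of endothelium, was listed at 0 in all 6 libraries.

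Areg, the epidermal growth factor ligand amphiregulin, made by type 2 innate lymphoid cells and by epithelium, was at 47.4, 44.5 and 39.6 FPKM in control replicates 1 to 3 and at 120.9, 125.2 and 155.1 FPKM in noggin replicates 1 to 3. Limma called it higher (1.58, adjusted p = 0.0151), 1 of 2 tested among 9 genes of that cell type. Among epithelial markers limma called 4 of 8 parietal cell genes lower, 3 of 3 neck cell genes higher and 2 of 5 enteroendocrine cell genes higher. It called 0 of 5 chief cell and 0 of 3 pit cell genes (0 and 1 at an unadjusted p under 0.05). Over all genes tested limma called 2.44%, and 26.7% had an unadjusted p under 0.05.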
